A study of Mus musculus with 5 samples.

Results

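The Krt6a-high tumor epithelial cells were 1025 of the 2290 barcodes kept from a single mouse mammary tumor, or 44.8% (exact Clopper-Pearson 95% interval 42.7 to 46.8%). They carried 65.5% of the kept UMIs of that library. A barcode was kept with at least 300 genes and at most 20% mitochondrial UMIs. It was a member with at least 15 UMIs of Krt6a and Krt16 together per 10000 UMIs (CP10k), at least 5 UMIs of Krt14 and Krt5 together, and at most 1 UMI each of Ptprc, the pan-leukocyte gene, and Pecam1, an endothelial gene. The members were thus chosen by the measured values of these 6 genes. With 1 tumor library there is no replicate, so nothing below carries a test, and every difference between barcode sets of this tumor describes that library. Intervals are 95% and cover counting error only.

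The series holds 5 libraries of 3' single-cell RNA, with 33551 kept barcodes in all. All mice carried Krt14cre and 2 floxed Trp53 alleles, so the controls share that genotype. BPK mice also had 1 floxed Brca1 allele (Brca1 wt/flox), and PK mice had Brca1 wt/wt. Mammary glands received 12 intraductal injections of PBS/PEG vehicle (BPK, 1 library) or of the carcinogen 4NQO (PK, 1 library; BPK, 2 libraries), and the BPK tumor arose after 24 injections of 4NQO. The Cre is driven by the Krt14 promoter, so recombination is limited to cells that express Krt14 or descend from such cells. The labels do not give ages, nor whether the 2 BPK 4NQO libraries come from different animals.

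Keratins are the intermediate filament proteins of epithelia and are built as pairs of a type I and a type II chain. Krt5 and Krt14 pair in basal keratinocytes and in mammary myoepithelium, and Krt8 and Krt18 pair in luminal and other simple epithelia. Krt6a, Krt6b, Krt16 and Krt17 are known for their induction in wounded and hyperproliferative skin, and the Sprr, Lce and Ivl genes encode proteins that are crosslinked into the cornified envelope of terminally differentiating keratinocytes.

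Total depth was 58754764 UMIs over 2654 tumor barcodes and 27383717 to 64169843 UMIs in the gland libraries. Members held a median of 36706 UMIs (537 to 115884) and 4925 genes, against 12061 UMIs in the 1265 other kept tumor barcodes. Levels below are therefore UMIs pooled over a set and given as counts per 1000000 UMIs (CPM), and shares of barcodes are given after thinning each barcode to 3000 UMIs. Because the other barcodes are a mixture, 2 narrower references were added after the data were seen. Both lie under 15 CP10k of Krt6a and Krt16, meet the rest of the rule and leave out barcodes rich in collagen UMIs. The Krt14/Krt5 reference (112 barcodes, median 11806 UMIs) has at least 30 CP10k of Krt14 and Krt5 and is not in the other reference. The Krt8/Krt18 reference (279 barcodes, median 15178 UMIs) has at least 10 CP10k of Krt8 and Krt18. A further 244 Krt6a-low barcodes were set apart by collagen UMIs and 88 fell in none of these sets.

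The markers of the members were detected as follows at 3000 UMIs, a depth reached by 983 of them. Krt6a was found in 99.7% and Krt16 in 76.5%. The rule used the sum of these 2 genes, so both shares are a description. Krtdap, a secreted keratinocyte differentiation protein, was found in 59.5%, against 29.3% of barcodes with 2 or more Ptprc UMIs, a set that should lack it and whose median depth was 9017.5 UMIs. Serpinb2, an inhibitor of plasminogen activators, was found in 70.2% against 14.1%, and Sprr1b, a cornified envelope precursor, in 32.4% against 12.0%. The 3 markers that the rule did not use were thus above that background, but Sprr1b was missing from most members at this depth. Other sets reached higher shares than the Ptprc barcodes for Serpinb2 (34.85% of the collagen barcodes) and Krtdap (34.65% of the Krt14/Krt5 reference), but not for Sprr1b. The rest of the library also held Krt14 UMIs nearly everywhere, with 91.3% of the Ptprc barcodes positive, so 5 UMIs of Krt14 and Krt5 alone do not set an epithelial cell apart.

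Markers of other cell types were low in the members. Of the macrophage list, Lyz2 was at 30.1 CPM against 14314 in the Ptprc barcodes and C1qa at 10.4 against 4700. The endothelial genes Cdh5 and Kdr stood at 1.24 and 0.475 CPM, and Cd8a and Ms4a1 at 0 UMIs, which allows up to 0.0974 CPM. Col1a1 stood at 43.5 CPM against 8576 in the collagen barcodes, and 5 members held 50% of those UMIs. Doublet scoring placed 15 members (1.46%) and 27 other barcodes (2.13%) in the highest 1.83% of scores.

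The label held less well for some members. In 44 members (4.29%, 2.10% of member UMIs) Krt14 and Krt5 lay under 30 CP10k. These pooled to 1108 CPM of Krt14, close to the 1080 CPM of the Ptprc barcodes, and to 5104 CPM of Krt8 and 8337 CPM of Krt19. The other 981 members had 16391 CPM of Krt14, 122 of Krt8 and 52.7 of Krt19. By keratins the 44 stood with the Krt8/Krt18 reference, which had 4308 CPM of Krt8, and results that rest on them are given without them as well.

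Promoter sequence is shown for the 3 markers that the rule did not use and for Sprr1a, a paralog of Sprr1b. Each run is the 250 bases before a RefSeq transcript start, from RefSeq on GRCm38.p6, on the gene's own strand, and capitals mark matches to the AP-1 consensus TGANTCA, which reads the same on both strands. Krtdap lies at chr7:30787655-30787904 (+), Sprr1b at chr3:92438780-92439029 (-), Serpinb2 at chr1:107511173-107511422 (+) and Sprr1a at chr3:92485882-92486131 (-). Krt6a, Krt6b, Krt16 and Krt17 are named only.
Krtdap: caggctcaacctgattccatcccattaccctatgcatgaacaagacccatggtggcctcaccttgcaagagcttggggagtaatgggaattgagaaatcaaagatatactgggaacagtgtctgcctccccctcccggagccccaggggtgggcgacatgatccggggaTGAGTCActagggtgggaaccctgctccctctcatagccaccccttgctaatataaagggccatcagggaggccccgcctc
Sprr1b: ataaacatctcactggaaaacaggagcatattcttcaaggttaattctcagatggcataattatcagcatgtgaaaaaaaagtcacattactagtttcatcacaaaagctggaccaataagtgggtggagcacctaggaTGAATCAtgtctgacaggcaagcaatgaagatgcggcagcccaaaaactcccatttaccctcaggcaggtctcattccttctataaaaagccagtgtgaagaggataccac
Serpinb2: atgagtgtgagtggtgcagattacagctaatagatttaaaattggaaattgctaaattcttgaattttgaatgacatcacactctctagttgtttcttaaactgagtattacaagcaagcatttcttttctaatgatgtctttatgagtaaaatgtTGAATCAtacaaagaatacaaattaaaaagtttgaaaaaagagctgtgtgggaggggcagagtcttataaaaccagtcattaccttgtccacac
Sprr1a: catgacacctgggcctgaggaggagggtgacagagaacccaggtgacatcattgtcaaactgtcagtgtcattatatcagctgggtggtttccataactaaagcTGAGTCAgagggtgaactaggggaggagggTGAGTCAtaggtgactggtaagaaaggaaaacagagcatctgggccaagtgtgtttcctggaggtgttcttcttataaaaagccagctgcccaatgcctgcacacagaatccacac
The match began 81 bases before the start in Krtdap, 111 before it in Sprr1b and 94 before it in Serpinb2. Sprr1a held 2 matches, at 146 and 116 bases before its start. The windows of Krt14, Krt5, Krt75, Krt8 and Krt18 were searched too and held 0 matches, and they are not printed. Over all windows of this length 2217 of 32851 (6.75%) held the motif, and by gene symbol 2113 of 27025 (7.82%). In the epidermal differentiation list it was found for 9 of the 18 genes in the table, namely Krt13, Krtdap, Ivl, Lor, Flg, Sprr1a, Sprr1b, Sbsn and Dmkn. It was also found in 5 of 12 interferon-stimulated genes, a list low in the members, in 4 of 9 metalloproteinase and inhibitor genes, 3 of 4 plasminogen system genes and 2 of 4 MHC class II genes, and in none of 19 S phase and mitosis genes. It was found in 0 of 2 basal keratin genes, 0 of 6 hemidesmosome and basement membrane genes and 0 of 7 EGFR family and ligand genes. The motif was therefore not particular to lists that were high in the members. The epidermal genes lie partly in shared clusters and are not independent, and a match is a description of letters and not a bound site.

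The members carried high levels of the basal pair Krt14 and Krt5, which the rule and the gate of the Krt14/Krt5 reference both used, so these levels are a description. Krt14 (chr11:100203162-100207548, mm10) was the most abundant keratin at 16070 CPM (interval 16030 to 16110), against 6429 CPM (6305 to 6554) in the Krt14/Krt5 reference and 2186 CPM (2147 to 2227) in the Krt8/Krt18 reference. Krt5 stood at 3344, 1361 and 429 CPM in the same order. The rule asked for only 5 UMIs of this pair, and members held a median of 151 CP10k of Krt14, with 5% of members under 28.8 and 5% over 318. Krt15, a basal keratin of resting epidermis and hair follicle bulge, went the other way, at 58.4 CPM (56.0 to 60.9) against 310 CPM (284 to 339) in the Krt14/Krt5 reference.

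Krt6a (chr15:101689910-101694307) stood at 4111 CPM against 628 and 451 CPM, and Krt16 (chr11:100246091-100248902) at 1331 against 207 and 137 CPM. Both are given as a description because the rule used them. Krt17 was at 4896 CPM against 3907 CPM (3811 to 4005) in the Krt14/Krt5 reference, a log2 difference of 0.33, and against 960 CPM in the Krt8/Krt18 reference, a log2 difference of 2.35. Krt17 was thus close to the first reference and well above the second. Krt6b (chr15:101676023-101680287), a near-identical neighbour of Krt6a whose reads could be split between the copies, was at 401 CPM against 16.8 and 12.7 CPM. Krt75, the hair companion layer keratin, had 2 UMIs in all members.

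**Figure D1:**
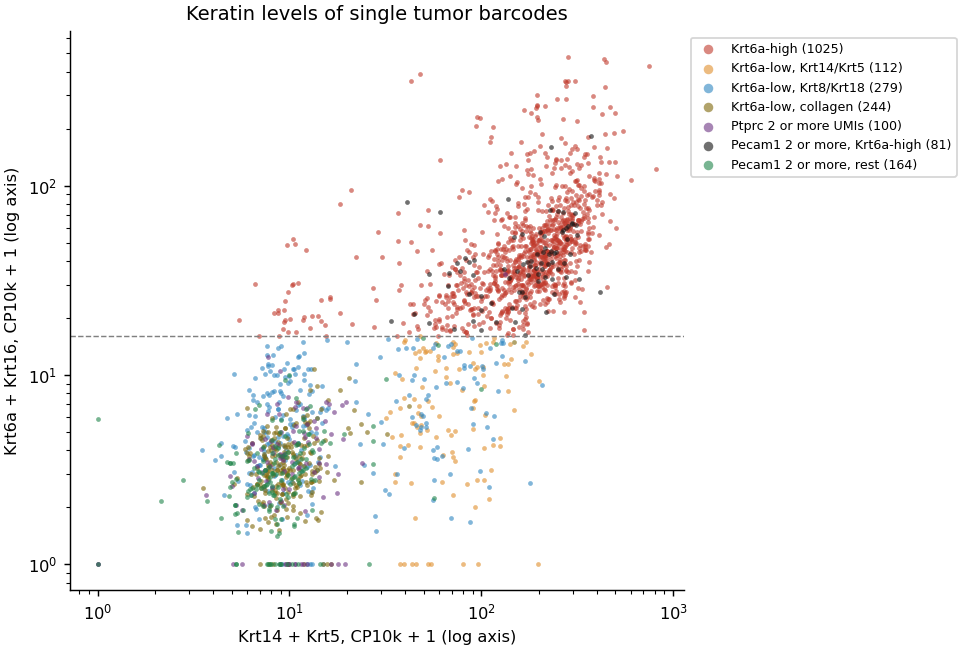
Keratin levels of single tumor barcodes, as CP10k plus 1 on log axes. The dashed line marks the 15 CP10k of Krt6a and Krt16 that chose the members, and the few members at low Krt14 and Krt5 are the 44 described by their Krt8 and Krt19.

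Across all genes, 307 of 9011 tested genes (3.41%) were at least 2-fold higher in the members than in all other barcodes, and 1357 (15.1%) at least 2-fold lower. Against the Krt14/Krt5 reference the counts were 388 (4.31%) and 944 (10.5%), and against the Krt8/Krt18 reference 697 (7.73%) and 1044 (11.6%). Against the whole Krt6a-low set, collagen barcodes included, they were 528 (5.86%) and 1425 (15.8%). A tested gene had at least 5 CPM over all kept tumor barcodes, and folds are of CPM + 1. The gene counts below are descriptions beside these shares, because the contrast is the one that chose the members. Fewer cells of a kind and less RNA per cell cannot be told apart in such pooled levels.

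Epidermal differentiation genes were high in the members, but much of the cornified part came from few barcodes. Of the 24 genes listed, 18 were tested, and 13 of these were at least 2-fold higher and none lower than in the Krt14/Krt5 reference (median log2 difference 2.05, against -0.07 over all genes). Against the Krt8/Krt18 reference 13 were higher and 1, Krt4, lower (median 2.77, against -0.03). Some of the 18 can have passed the filter only through the members, so the count cannot support the pattern.

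Krtdap (chr7:30787896-30791097) stood at 1685 CPM (1672 to 1698), against 353 CPM (325 to 383) and 86.4 CPM (78.7 to 94.7). Its spread was wide, with 82.2% of members holding a UMI at 10000 UMIs, a median of 2.96 CP10k and a maximum of 429 CP10k. Dmkn and Sbsn, which encode the secreted suprabasal proteins dermokine and suprabasin, were at 1566 against 607 CPM and at 354 against 116 CPM in the Krt14/Krt5 reference. Fabp5, the epidermal fatty acid binding protein, was at 1902 CPM against 524 and 211 CPM. Lgals7, galectin-7 of stratified epithelia, was at 5068 CPM against 3548 and 1442 CPM, a log2 difference of 0.51 from the first reference.

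The envelope precursors were concentrated. Sprr1b (chr3:92436809-92438789) was at 439 CPM against 62.8 and 25.3 CPM, and 32 members held 50% of its UMIs. For Krt6b and Sprr1a that number was 20 each, for Cnfn, which encodes cornifelin, 6, and for Lce3c, a late cornified envelope gene, 5. For comparison, 50% of all UMIs lay in 313 members and 50% of the Krt14 UMIs in 239. A group of 65 members, picked after the data were seen because each held at least 10 UMIs of Cnfn or Lce3c, carried 6.28% of member UMIs but 91.0% of Cnfn, 65.0% of Sprr1a, 56.2% of Krt6b, 50.9% of Sprr1b and 26.8% of Krtdap UMIs. Their Krt14 level of 16911 CPM was near that of the other 960 members, 16014 CPM.

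Without those 65 barcodes the members had 187 CPM of Krt6b, 230 of Sprr1b, 158 of Sprr1a, 1317 of Krtdap and 9.60 of Cnfn. Cnfn and Lce3c then had log2 differences of 0.04 and 0.06 from the Krt14/Krt5 reference. The 65 were picked on these 2 genes and only members were left out. These 2 differences therefore cannot show that the other members equal the reference. Krt6b, Sprr1b and Krtdap kept log2 differences of 3.40, 1.86 and 1.90 from it. The list then counted 8 of 16 tested genes higher and none lower than the Krt14/Krt5 reference, with a median of 0.95. Against all other barcodes Sprr1a changed sign, from 1.18 to -0.23.

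Other genes of epidermal differentiation were mixed, and several were low. Krt10, the spinous layer keratin, stood at 16.5 CPM (15.2 to 17.8) against 17.4 CPM (11.6 to 25.2) in the Krt14/Krt5 reference, and its partner Krt1 at 7.92 CPM, with 1 member holding 221 of its 300 UMIs. Lor, the loricrin gene, stood at 1.11 CPM, Flg, the filaggrin gene, at 3.54 CPM, and Sprr3 at 0 UMIs. Ivl, the involucrin gene, was at 52.9 CPM (50.6 to 55.3) against 5.59 CPM (2.56 to 10.6). Ivl thus stood above the reference, while Krt10 was level with it.

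**Figure D2:**
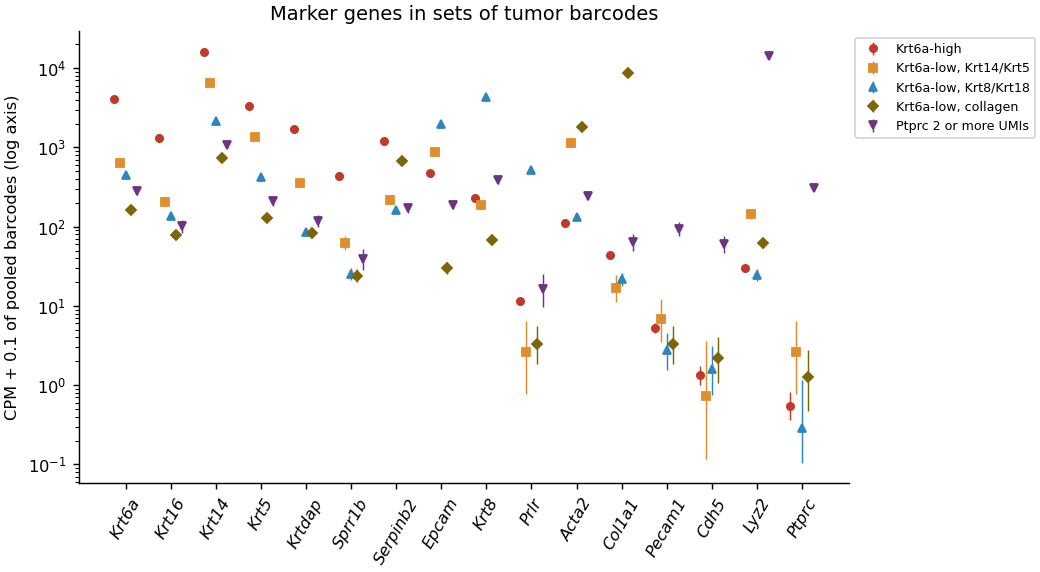
Levels of marker and keratin genes in the barcode sets of the tumor, as CPM plus 0.1 on a log axis. Krt6a and Krt16 were used by the rule, and Krtdap and Sprr1b are highest in the Krt6a-high set.

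Simple keratins separated the members from the Krt8/Krt18 reference, whose gate used 2 of them. All 9 genes of the simple keratin and luminal adhesion list were at least 2-fold lower there (median -3.92). Krt19, which that gate did not use, was at 227 CPM against 5335 CPM, and Krt7 at 42.8 against 692 CPM. The tight junction genes Cldn3 and Cldn7 were at 29.8 against 484 CPM and 27.2 against 426 CPM. Against the Krt14/Krt5 reference 4 of the 9 (Krt7, Krt18, Krt19 and Cldn4) were higher. Without the 44 members of low Krt14 and Krt5 only 1 was higher and 2 were lower, and Krt19 changed sign, from 1.78 to -0.30. The Krt14/Krt5 reference leaves out barcodes with 10 CP10k or more of Krt8 and Krt18, a level that 167 members (16.3%) reached. The levels of these genes against it are therefore set in part by its gate. Epcam, the general epithelial adhesion gene, was at 474 CPM in the members, 882 CPM in the Krt14/Krt5 reference and 1981 CPM in the Krt8/Krt18 reference.

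Most listed genes of both luminal mammary branches were low in the members. The hormone-sensing genes Prlr and Foxa1 stood at 11.4 and 2.96 CPM, against 521 and 57.7 CPM in the Krt8/Krt18 reference. The 44 members of low Krt14 and Krt5 held 87.8% of the members' Prlr UMIs, and the other 981 stood at 1.43 CPM. The alveolar genes Elf5 and Kit were at 0.607 and 0.528 CPM, and the casein Csn3 at 6.84 CPM against 777 CPM. Wfdc18, also listed as an alveolar marker, had 12723 UMIs in the members, and 10 members held 50% of these. Without thinning it was found in 66.3% of members. Trp63, which encodes the basal and squamous lineage factor p63, was at 155 CPM, near the 165 CPM of the Krt14/Krt5 reference and above the 27.6 CPM of the Krt8/Krt18 reference. Gata3, a luminal regulator also active in skin, was at 18.9 CPM against 93.9 and 92.3 CPM.

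Myoepithelial contractile genes were low in the members. All 7 tested genes of the smooth muscle list were at least 2-fold lower than in the Krt14/Krt5 reference (median -4.55), and 4 of 7 than in the Krt8/Krt18 reference (median -1.16). Only 3 of the 7 (Acta2, Myl9 and Tagln) reached 5 CPM over all members. The rest passed the filter only through the other barcodes, so these counts cannot support the pattern. Acta2, smooth muscle actin, was at 112 CPM against 1147 CPM (1096 to 1201), Tagln at 10.7 against 570 CPM, and Myl9 at 12.1 against 275 CPM. The Krt14/Krt5 reference thus holds barcodes with a myoepithelial profile, and it also has more macrophage UMIs, with Lyz2 at 144 CPM and Cd74 at 275 CPM against 32.9 in the members. Their part in the differences from this reference was not tested. Of the upper hair follicle and sebaceous list, 3 of 7 tested genes were lower and none higher, with Sostdc1 at 24.1 against 292 CPM and Krt79 at 57.2 against 77.1 CPM.

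**Figure D3:**
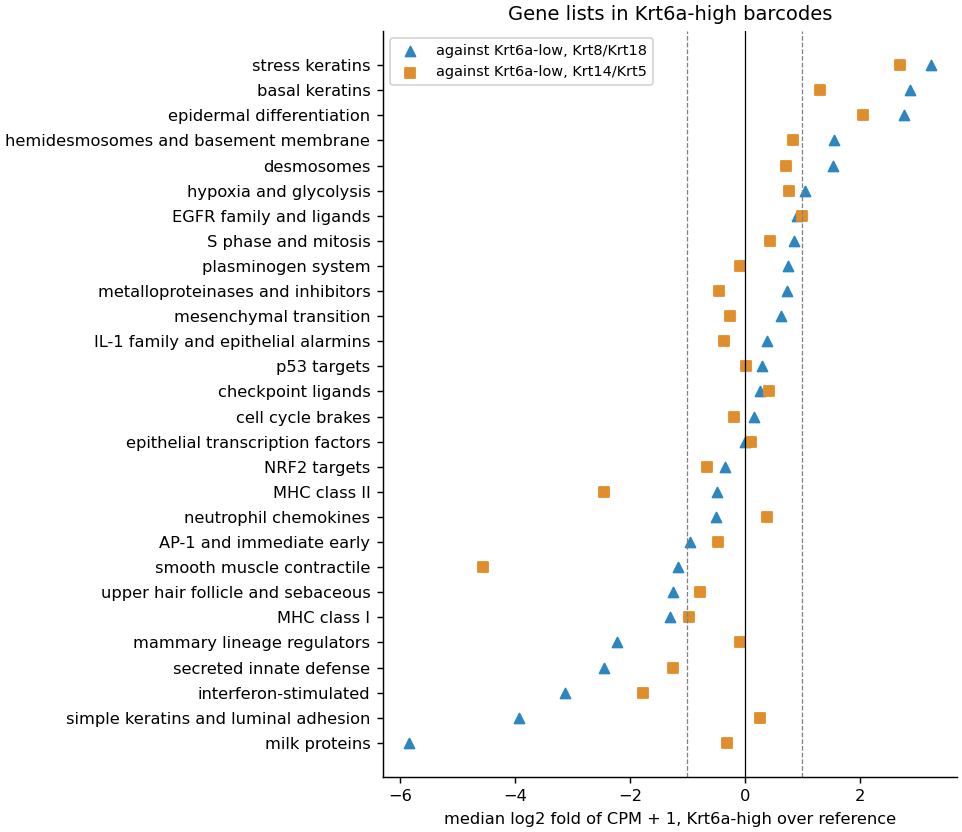
Median log2 fold of each gene list in the members against the Krt8/Krt18 reference (triangles) and the Krt14/Krt5 reference (squares), with dashed lines at 2-fold. Epidermal differentiation genes lie more than 2-fold above, and interferon-stimulated genes more than 2-fold below, both references. Some of the interferon-stimulated genes passed the filter only through the other barcodes. The stress keratin, basal keratin and simple keratin points hold genes that the rule or the reference gates used.

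Desmosome genes differed in part from the references. Of 9 desmosome genes, 5 were at least 2-fold higher and 1 (Dsg2) lower than in the Krt8/Krt18 reference, and 3 were higher than in the Krt14/Krt5 reference. Dsc3 and Dsg3, the desmosomal cadherins of the lower epidermis, were at 109 against 30.5 and 9.64 CPM and at 77.4 against 26.1 and 11.0 CPM. Gjb2, which encodes the gap junction protein connexin 26, was at 288 CPM (282 to 293) against 34.2 CPM (25.8 to 44.5) and 12.1 CPM (9.32 to 15.5).

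Hemidesmosome and basement membrane adhesion genes, which anchor basal cells to the basement membrane, were at least 2-fold higher in 8 of 11 cases than in the Krt8/Krt18 reference (median 1.56). Against the Krt14/Krt5 reference only Itgb4, the integrin beta 4 gene, reached 2-fold, at 338 against 138 CPM, with a median of 0.84. The laminin chains Lamb3 and Lama3 stood at 598 and 399 CPM, against 318 and 209 CPM there, and Col17a1 at 582 against 325 CPM.

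EGFR ligands, growth factors that keratinocytes make and respond to, were abundant in the members. Areg, which encodes amphiregulin, was at 1563 CPM (1551 to 1576), against 786 CPM in the Krt14/Krt5 reference and 2249 CPM in the Krt8/Krt18 reference, so the members lay between the references. Hbegf was at 833 CPM against 415 and 336 CPM. Epgn, which encodes epigen, was at 587 against 177 and 193 CPM, and Ereg, which encodes epiregulin, at 162 against 50.4 and 27.2 CPM. Of 9 tested genes of the EGFR list, 4 were higher and none lower than in the Krt14/Krt5 reference, and 4 were higher and 2 lower than in the Krt8/Krt18 reference. The receptor Egfr was low in UMIs in all these sets, at 16.1 CPM in the members.

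Of the plasminogen system, Serpinb2 (chr1:107511423-107535478) stood out at 1203 CPM (1192 to 1214) against 218 CPM (196 to 242) and 161 CPM (151 to 173). Plau, the urokinase gene, was at 35.5 against 11.8 and 16.8 CPM. Plaur, its receptor, was at 168 against 178 and 241 CPM, and Serpine2, another inhibitor, at 13.7 against 173 and 69.6 CPM. The list therefore differed in both directions, with 2 of 7 genes higher and 2 lower than in the Krt14/Krt5 reference.

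Metalloproteinases were also mixed. Mmp9, a gelatinase, was at 71.9 CPM against 17.4 CPM (11.6 to 25.2) and 8.89 CPM, but its log2 difference from the Krt14/Krt5 reference turned to -0.10 at 30 CP10k of Krt6a and Krt16. Mmp10, a stromelysin, was at 261 against 71.5 and 71.9 CPM. Mmp13, a collagenase, was at 308 against 165 and 80.9 CPM. The inhibitors Timp2 and Timp3 were at 16.8 against 64.6 CPM and 32.9 against 141 CPM in the Krt14/Krt5 reference. Mesenchymal genes showed no common direction, with Vim at 58.2 against 372 CPM, Tgfbi, which encodes a matrix protein, at 362 against 142 CPM, and Snai2 at 30.2 against 34.8 CPM (26.3 to 45.2).

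Interferon-stimulated genes were low in the members as a list. All 13 tested were at least 2-fold lower than in all other barcodes (median -2.61, against -0.11 over all genes), and all 13 lower than in the Krt8/Krt18 reference (median -3.12). Against the Krt14/Krt5 reference 11 of 13 were lower (median -1.78), and 12 of 13 without the 44 members of low Krt14 and Krt5. Only 8 of the 16 listed genes reached 5 CPM over all members. The rest of the 13 passed the filter only through the other barcodes, so these counts cannot support the pattern. Isg15, an interferon-induced ubiquitin-like modifier, was at 14.9 CPM (13.7 to 16.2) against 44.1 CPM (34.5 to 55.7) and 155 CPM (145 to 166), and Bst2 at 26.1 against 118 and 298 CPM. Cxcl10, a T cell attracting chemokine, was at 2.51 against 100 and 34.4 CPM.

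Antigen presentation genes were also lower. In the MHC class I list 4 of 9 genes were at least 2-fold lower than in the Krt14/Krt5 reference and 6 of 9 than in the Krt8/Krt18 reference, with none higher. B2m, the shared light chain, was at 1196 CPM against 2706 and 2781 CPM, and H2-K1, a heavy chain, at 662 against 1105 and 1290 CPM. The immunoproteasome gene Psmb8 was at 138 against 295 and 601 CPM. The class II chaperone Cd74 was at 32.9 CPM, near the 46.3 CPM of the Krt8/Krt18 reference, while the Ptprc barcodes had 14617 CPM.

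Among secreted defense genes, Slpi, a protease inhibitor, was at 506 CPM against 4142 and 5587 CPM, and Lcn2, a siderophore-binding protein, at 36.0 against 416 and 969 CPM. Of 6 genes of the secreted defense list, 1 (Defb14) was higher and 3 lower than in the Krt14/Krt5 reference, and 5 were lower and none higher than in the Krt8/Krt18 reference. Defb14, a beta-defensin gene, was at 8.58 CPM, against 0 UMIs in the Krt14/Krt5 reference, which allows up to 2.29 CPM, and 22.3 CPM in the Krt8/Krt18 reference. Of 7 neutrophil chemokine genes, 2 (Csf2 and Ppbp) were higher and 1 (Cxcl2) lower than in the Krt14/Krt5 reference (median 0.38), and 2 were higher and 2 lower than in the Krt8/Krt18 reference (median -0.51). Ppbp was at 49.0 against 23.6 and 21.6 CPM, and Csf2 at 12.1 against 4.97 and 13.6 CPM, with the sign of Csf2 against the Krt14/Krt5 reference changing at 30 CP10k of Krt6a and Krt16 (-0.74). The chemokine Cxcl1 was at 874 CPM, near 929 CPM in the Krt14/Krt5 reference and under 1248 CPM in the Krt8/Krt18 reference, while Cxcl2 was at 378 against 1056 and 941 CPM. Of 9 genes of the IL-1 and alarmin list, 1 (Il1f9, at 14.1 CPM against 2 UMIs) was higher and 2 lower than in the Krt14/Krt5 reference, and 4 were higher and 1 lower than in the Krt8/Krt18 reference. Against all other barcodes Il1f9 changed sign with equal weight per barcode (-1.06). Il1a was at 103 against 91.4 CPM (77.2 to 107), Il24 at 412 against 403 CPM (372 to 435), and Il1b, mainly a myeloid cytokine, at 10.6 against 62.8 CPM.

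Glycolytic genes were moderately high. Of 20 hypoxia and glycolysis genes, 10 were at least 2-fold higher and none lower than in the Krt8/Krt18 reference (median 1.05), and 4 were higher and 1 (Hk2) lower than in the Krt14/Krt5 reference (median 0.76). Ldha, lactate dehydrogenase A, was at 2650 against 1452 and 1020 CPM. The lactate exporter Slc16a3 was at 201 against 82.7 and 30.6 CPM, and the oxygen sensor Egln3 at 90.5 against 41.0 and 23.3 CPM. NRF2 targets did not follow, with none of 13 higher and 4 lower than in the Krt14/Krt5 reference, among them Txnrd1 at 39.3 against 106 CPM, and 2 (Gsta4 and Cbr3) higher and 4 lower than in the Krt8/Krt18 reference. AP-1 and immediate early genes gave none higher and 2 of 12 lower than in the Krt14/Krt5 reference, and 1 (Fosl1) higher and 5 lower than in the Krt8/Krt18 reference (median -0.96). Fosl1 was at 336 against 300 CPM (274 to 328) and 150 CPM, and Fos at 622 against 884 and 1395 CPM. Hmga2, a chromatin protein of embryonic and tumor tissue, was at 361 against 150 and 72.8 CPM, and its log2 difference from the Krt14/Krt5 reference turned to -0.0944 at 30 CP10k of Krt6a and Krt16.

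More members than other barcodes carried proliferation transcripts. At 3000 UMIs, 578 of 983 members (58.8%, interval 55.6 to 61.9%) held UMIs of 2 or more of 21 S phase and mitosis genes, with 42 shallower members left out. The share was 32.7% (23.7 to 42.7%) in the Krt14/Krt5 reference, 25.7% (20.7 to 31.3%) in the Krt8/Krt18 reference, and 30.4% (21.3 to 40.9%) in the Ptprc barcodes. Without thinning the members' share was 92.7%. The measure reads free RNA as well, so these shares are not shares of dividing cells. By level the list differed less, with 2 of 21 genes at least 2-fold higher than in the Krt14/Krt5 reference (median 0.44) and 6 of 21 than in the Krt8/Krt18 reference (median 0.85). Ube2c, a mitotic ubiquitin-conjugating enzyme, was at 211 against 87.0 and 99.5 CPM, with a log2 difference from the Krt14/Krt5 reference that turned to -0.22 when members needed 30 CP10k of Krt6a and Krt16 and the reference took in those below. Mki67 was at 29.6 against 33.6 CPM (25.2 to 43.8) and 18.0 CPM.

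Among 6 cell cycle brakes, Cdkn1b, which encodes p27, was at least 2-fold lower than in both references, at 6.65 against 17.4 and 17.2 CPM, and Cdkn1c, which encodes p57, was higher than in the Krt8/Krt18 reference, at 10.7 against 4.16 CPM. Cdkn2a, which encodes p16 and p19Arf, was at 212 CPM (207 to 216) against 214 CPM (192 to 238) in the Krt14/Krt5 reference and 275 CPM in the Krt8/Krt18 reference. None of 9 tested p53 targets reached 2-fold in either direction against the Krt14/Krt5 reference (median 0.01), and against the Krt8/Krt18 reference Phlda3 was higher and Trp53inp1 lower (median 0.30). Cdkn1a, counted among the brakes, was at 378 against 262 and 287 CPM. Trp53 itself was at 4.51 CPM (3.86 to 5.24) against 12.4 CPM (7.59 to 19.2) and 30.4 CPM (25.9 to 35.5). A 3' tag does not show whether the floxed exons were lost. Brca1 was at 2.35 CPM, against 2.49 CPM (0.677 to 6.37) and 1.89 CPM (0.907 to 3.48).

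Members differed among themselves along Krtdap. Ranked by Krtdap CP10k they were divided, after the data were seen, into ranges of 342, 342 and 341 barcodes with 0 to 1.24, 1.25 to 10.7 and 10.9 to 429 CP10k and near-equal median depths of 36012, 36244.5 and 37570 UMIs. These are ranges of 1 gene and not cell types. From the lowest to the highest range, 200 of 8218 tested genes (2.43%) were at least 2-fold higher and 394 (4.79%) at least 2-fold lower, with a median of -0.09.

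Fabp5 stood at 496, 768 and 4297 CPM from the lowest to the highest range. Gsta4, a glutathione transferase, was at 54.1, 106 and 700 CPM, and Klk10, a kallikrein-related peptidase, at 51.5, 84.1 and 585 CPM. Leaving out Krtdap, which made the ranges, 15 of 19 epidermal differentiation genes tested were higher and 1, Krt4, was lower. Sbsn was at 84.5, 171 and 779 CPM and Sprr1b at 82.7, 194 and 1006 CPM. The step was larger between the middle and the highest range than between the lowest and the middle one for each of these 5 genes. These ranges include the 65 members rich in Cnfn or Lce3c, which held 50.9% of the members' Sprr1b UMIs.

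Other genes were lower where Krtdap was high. Lamb3 stood at 818, 686 and 307 CPM from the lowest to the highest range and Lama3 at 535, 461 and 213 CPM, so both laminin chains were among the genes at least 2-fold lower. Cdkn2a was at 331, 223 and 88.6 CPM, Timp1 at 399, 276 and 78.0 CPM, and Cd200, an immunoregulatory surface protein, at 193, 97.4 and 15.4 CPM. Krt18 was at 803, 483 and 166 CPM, and 8 of 9 simple keratin and adhesion genes were lower. Of the 44 members of low Krt14 and Krt5, 32 lay in the lowest range, 10 in the middle and 2 in the highest. Without them Krt18 was at 556, 409 and 166 CPM, Krt8 at 210 CPM in the lowest and 63.2 CPM in the highest range, and Krt19 at 58.6, 47.9 and 51.8 CPM. Interferon-stimulated genes were lower in 7 of 8 cases, and B2m stood at 1759, 1133 and 727 CPM.

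The share with 2 or more S phase and mitosis genes was 43.3% (37.9 to 48.9%) in the lowest, 59.1% (53.6 to 64.3%) in the middle and 74.7% (69.5 to 79.4%) in the highest Krtdap range. The 65 members rich in Cnfn or Lce3c were at 39.0% (26.5 to 52.6%), and the other members at 60.1% (56.8 to 63.2%). Across 917 members thinned to 10000 UMIs, with 108 shallower ones left out, the Spearman correlation of Krtdap was 0.61 with Dmkn, 0.61 with Fabp5, 0.53 with Sbsn, -0.43 with Cdkn2a and 0.24 with the S phase and mitosis list. All these barcodes share 1 library, and the values are descriptions.

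**Figure D4:**
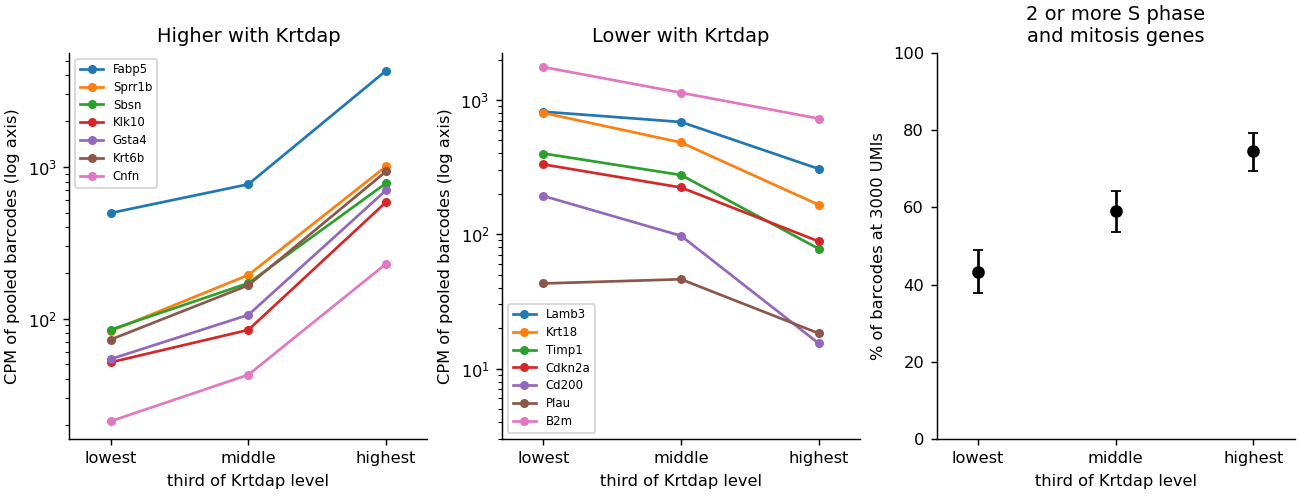
Left and middle, pooled CPM (log axes) of genes higher and lower with Krtdap in 3 ranges of the members, lines joining the ranges. Right, share of barcodes with 2 or more S phase and mitosis genes at 3000 UMIs, with 95% Clopper-Pearson intervals, from 43.3% to 74.7%.

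Ranked instead by Krt6a and Krt16, the values of the rule, members fell into ranges of 15.02 to 32.2, 32.3 to 52.3 and 52.7 to 479 CP10k. Of 8218 tested genes 155 (1.89%) were at least 2-fold higher and 158 (1.92%) lower in the highest than in the lowest range. Krt6b stood at 29.6, 63.7 and 1123 CPM, Cnfn at 7.83, 12.8 and 284 CPM, Sprr1a at 119, 117 and 1047 CPM, and Krtdap at 725, 1162 and 3169 CPM. The ranges include the 65 members rich in Cnfn or Lce3c, which had 9440 CPM of Krt6a and 6343 CPM of Krt16. Those 65 held 65.0% of Sprr1a and 56.2% of Krt6b UMIs, so much of the level of these 2 genes came from few barcodes. They also held 91.0% of Cnfn UMIs, but they were picked on Cnfn or Lce3c. Krt8 was at 437, 182 and 79.1 CPM and Krt19 at 523, 122 and 62.6 CPM. Of the 44 members of low Krt14 and Krt5, 35 lay in the lowest range, 6 in the middle and 3 in the highest. Without them Krt8 was at 192, 104 and 78.8 CPM and Krt19 at 48.1, 47.4 and 62.4 CPM, so the Krt19 step was no longer present. Krt6a and Krt16 made these ranges, so the steps are a description. The highest range held 3532 of the 3799 Cnfn UMIs, but only 1208 of the 2005 Ivl UMIs. The S phase and mitosis shares were 58.6%, 63.8% and 53.8%, with overlapping intervals for every pair of ranges.

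Values close to the threshold on either side were alike in kind. The 50 members just inside it, at 15.02 to 17.8 CP10k, had 6773 CPM of Krt14, 1134 of Krt8, 507 of Krtdap and 933 of Epcam. The 50 gate barcodes just outside, at 11.99 to 14.99 CP10k, had 5685, 993, 308 and 861 CPM. A further 81 barcodes met every condition but the Pecam1 limit. They had a median of 47321 UMIs, 3576 CPM of Krt6a, 59.1 of Pecam1 and 6.15 of Cdh5, while the remaining 164 barcodes with 2 or more Pecam1 UMIs had 748 CPM of Pecam1 and 588 of Cdh5. They count among the other barcodes by the rule, which is why that set held 935 CPM of Krt6a. With them as members, 523 genes were higher than in all other barcodes, in place of 307.

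The same rule found few barcodes in the injected glands. Only 5 of 9388 kept vehicle barcodes met it, 11 of 7438 in the PK 4NQO gland, and 16 of 7475 and 42 of 6960 in BPK 4NQO replicates 1 and 2. As a share of barcodes that met the Krt14, Krt5, Ptprc and Pecam1 conditions this was 0.320% (0.104 to 0.745%), 0.957% (0.479 to 1.71%), 1.42% (0.814 to 2.295%) and 6.22% (4.52 to 8.32%), against 58.6% (56.3 to 61.0%) of 1748 in the tumor. The tumor was the deepest library by median UMIs per barcode (15195.5, against 2523 to 4573), and the 5 UMIs required of Krt14 and Krt5 are met more easily at depth. Barcode sequences shared with the tumor numbered 30, 26, 29 and 1, and 9, 4, 10 and 0 of these were member barcodes.

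**Figure D5:**
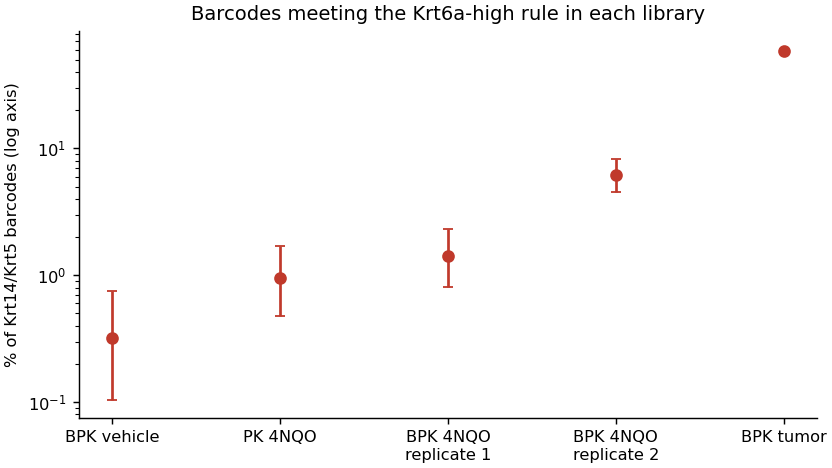
Barcodes that met the rule in each library, as a percent of the barcodes with 5 or more UMIs of Krt14 and Krt5 and at most 1 of Ptprc and Pecam1, with 95% Clopper-Pearson intervals. The tumor stands at 58.6% and the 4 gland libraries between 0.320% and 6.22%.

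The gland barcodes that met the rule resembled the members only in part, also in the rule's genes. Krt6a was found in 1 of 5 of BPK vehicle and 3 of 11 of PK 4NQO. In BPK 4NQO replicates 1 and 2 it was found in 11 of 16 and 30 of 42, against 1024 of 1025 members. Krt16 was found in 4 of 5, 11 of 11, 14 of 16 and 37 of 42, against 1007 members. Gland barcodes without Krt6a UMIs thus met the rule through Krt16 alone. Krtdap was found in 9 of 16 and 9 of 42 such barcodes of the BPK 4NQO libraries, in 1 of 11 of PK 4NQO and 0 of 5 of BPK vehicle, against 966 of 1025 members, at unequal depths. In the tumor, BPK 4NQO replicate 1 and replicate 2 Krtdap stood at 1685, 1200 and 486 CPM. Serpinb2 was at 1203 CPM in the tumor, 279 CPM in replicate 1 and 217 CPM in replicate 2. Krt1 and Krt10 went the other way, at 7.92 and 16.5 CPM in the tumor but 853 CPM (743 to 975) and 1019 CPM (899 to 1152) in replicate 2. In replicate 1 Krt10 was at 12.97 CPM (1.57 to 46.9) and Krt1 at 0 UMIs, which allows up to 23.9 CPM, so the high levels were seen in replicate 2 and not in replicate 1. Cnfn had 0 UMIs in both BPK 4NQO libraries, which allows up to 23.9 and 14.6 CPM, against 100 CPM in the tumor. Epcam was lower in the tumor, at 474 CPM against 1180 CPM in replicate 1 and 1296 CPM in replicate 2, and so was Acta2, at 112 CPM against 233 and 411 CPM.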

How the data were processed

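Deposited UMI counts per gene and barcode of 5 mouse libraries were read as deposited by the authors (27998 genes; 3' v2 chemistry, per the labels' protocols). Cell Ranger 3.0.2 (PK 4NQO) and 5.0.1 (the others) made them, per the file headers, on mm10, per the submitters' processing notes. How barcodes were called as cells, and the annotation release, were not given in the sources used here. No deposited column was left unmapped.

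UMIs were pooled over each barcode set and given as CPM with exact Poisson 95% intervals, and shares with Clopper-Pearson intervals. A gene was tested for size with at least 5 CPM over all kept tumor barcodes, or over all members for the ranges, and counted as higher or lower at 2-fold of CPM + 1. A count test was not possible with 1 tumor library. Shares were read after thinning each barcode to 3000 UMIs. Doublets were scored (scanpy 1.11.5) and kept, with their removal as an alternative. The members and the 35 gene lists were chosen with earlier results of these data known, and the narrower references, the setting with no Pecam1 limit, the Krtdap ranges and the groups of 44 and 65 members after seeing the data. Named genes were the 12 of largest fold in each direction per comparison with at least 50 CPM over all kept tumor barcodes (over all members for the Krtdap and Krt6a ranges), without mitochondrial, ribosomal, immune receptor, hemoglobin, Y-linked and predicted genes, plus list members. The calculation was tested on simulated data. Alternatives changed the threshold, filters, pseudocount, weighting, thinning and members left out. Software was Python 3.11.15, numpy 2.4.6, scipy 1.17.1, pandas 2.3.3 and matplotlib 3.10.9. Some items are not reported here.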

Additional observations from a re-analysis of the deposited data

How the results depend on the processing

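The number of members ranged from 719 to 1106 over the settings tried. Genes higher than in all other barcodes (307) numbered 157 at 30 CP10k, 523 with no Pecam1 limit, 190 with a filter of 20 CPM, 204 with a pseudocount of 5 and 576 with equal weight per barcode. The lower ones (1357) numbered 2789 with no filter and 505 with a filter of 20 CPM. Against all Krt6a-low barcodes, higher genes (528) numbered 171 at 30 CP10k and 333 at 20 CPM, and lower ones (1425) 2868 with no filter and 554 at 20 CPM. Against the Krt14/Krt5 reference, higher genes (388) numbered 840 at 10 CP10k, 104 at 30 CP10k, 639 with no filter, 187 at 20 CPM, 207 with a pseudocount of 5 and 700 with equal weights, and lower ones (944) 234 at 30 CP10k, 2047 with no filter, 334 at 20 CPM and 613 with a pseudocount of 5. Against the Krt8/Krt18 reference, higher genes (697) numbered 417 at 30 CP10k and 423 at 20 CPM, and lower ones (1044) 2071 with no filter and 376 at 20 CPM. The members' share with S phase and mitosis genes (58.8%) was 42.8% at 1500 UMIs and 46.7% when 3 genes were asked for. The sign changed for Il1f9 against all other barcodes with equal weights (-1.06), for Krt1 (-0.0773), Sprr1a (-0.23) and Cst6 (-0.0297) there without the 65 members rich in Cnfn or Lce3c, and for Krt1 without them against the Krt6a-low (-0.28), Krt14/Krt5 (-1.01) and Krt8/Krt18 (-0.59) sets. Against the Krt14/Krt5 reference it changed for Krt19 (-0.30) and Prlr (-0.52) without the 44 members, for the median of the innate defense list with no filter (0.0039), for Ccl8 at 10 CP10k (0.16), and at 30 CP10k for Krt4 (-0.11), Csf2 (-0.74), Mmp9 (-0.10), Ube2c (-0.22), Aurka (-0.18), Hmga2 (-0.0944), Ptprc (0.0146) and Wfdc18 (0.12). At 30 CP10k that reference gains members of 15 to 30 CP10k by construction, and no filter tests more genes; other causes were not tested. Without the 44 or the 65 members, every count of genes in these 4 comparisons stayed within 1.5 times. No paired analysis was possible because the tumor is a single library. Depth limits the gland comparison, where the sets hold 21610 to 253132 UMIs against 37889345.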

Other observations

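Among genes outside the lists, several were high in the members by the naming rule. Klk10 was at 247 CPM in the members, 61.5 CPM in the Krt14/Krt5 reference and 67.3 CPM in the Krt8/Krt18 reference. Csta1, which encodes a cystatin of the stefin A family, was at 159 against 37.9 and 11.5 CPM. Endou, an endoribonuclease gene, was at 112 against 12.4 and 11.0 CPM. Tmigd1, which encodes an immunoglobulin-domain membrane protein, was at 72.7 against 10.6 and 2.65 CPM, and Prl8a9, a member of the mouse prolactin family, at 103 CPM against 16.2 CPM in the Krt14/Krt5 reference.

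Several genes outside the lists were low against the Krt8/Krt18 reference by the same naming rule. Gpx3, a secreted glutathione peroxidase, was at 21.3 against 1599 CPM, and Trf, the transferrin gene, at 32.3 against 1437 CPM. Ptn, which encodes the growth factor pleiotrophin, was at 55.5 against 2645 CPM, and Spp1, the osteopontin gene, at 42.0 against 1238 CPM. These values come from the contrast that chose the members and have no replicate.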
